A study of Mus musculus with 24 samples.

Results

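Immunoglobulin variable (V) gene usage was examined in bulk RNA-seq of mouse splenic CD4+ T cells. The genes were chosen by their summed counts: of 54446 gene rows in the count table, 348 had a symbol starting with Ighv, Igkv or Iglv, and 174 of these had 50 or more counts over the 24 libraries. They were 86 of 185 heavy chain genes (Ighv), 85 of 160 kappa light chain genes (Igkv) and 3 of 3 lambda light chain genes (Iglv). Of the rows left out, 91 held 1 to 49 counts and 83 held none. The genes just inside the limit were Ighv1-25 with 55 counts, Igkv9-129 with 56 and Ighv1-31 with 57, and those just outside were Igkv9-123 with 49, Igkv5-37 with 46 and Igkv4-78 with 43. The 174 genes held 381471 counts, of which 86.2% came from the Aim2-/- libraries. In the WT libraries alone 125 of the 174 would have reached 50 counts, in the Aim2-/- libraries alone 169.

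The cells came from wild type (WT) mice of the C57BL6 strain and from Aim2-/- mice with the same strain background, which lack the cytosolic DNA sensor AIM2. They were left unstimulated (0 h) or stimulated with anti-CD3/CD28 antibodies for 3, 6 or 24 h. Each of the 8 groups of genotype and time held libraries of 3 mice (WT 1, 3 and 4 and Aim2-/- 1, 2 and 4), and each of the 6 mice gave 1 library per time. CD4+ T cells were enriched by immunomagnetic negative selection, so cells that escaped the depletion could remain. Library totals lay between 19715161 and 21627018 counts.

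An antibody chain is encoded only after a B cell has joined 1 V segment to a diversity (heavy chain) and joining segment by V(D)J recombination, and each B cell and its progeny then transcribe the V segment that they chose. Plasma cells secrete antibody and carry very large amounts of this mRNA, so a small number of expanded clones can set which V segments are seen in bulk RNA. T cells rearrange their receptor loci instead and do not express rearranged immunoglobulin chains, although mouse T cells do transcribe parts of the unrearranged heavy chain locus that include Ighm.

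The members that led usage in at least 1 mouse, or that differed most between the genotypes, are shown by the last 90 bases of their annotated transcript, 5′ to 3′ on the coding strand (GRCm38, GENCODE M21). This stretch ends at the recombination border, holds no annotated UTR and contains the start of the third complementarity-determining region, which contacts antigen. Capitals mark the codons for tyrosine, tyrosine or phenylalanine, and cysteine that close the framework before that region; this motif was found in the last 90 bases of 172 of the 174 genes. The heavy chain genes lie on the minus strand of chromosome 12, at chr12:115868773-115869227 (Ighv1-78), chr12:114391712-114392169 (Ighv6-3), chr12:114583569-114584002 (Ighv1-9), chr12:115980702-115981134 (Ighv1-84) and chr12:114288152-114288582 (Ighv3-6).
Ighv1-78: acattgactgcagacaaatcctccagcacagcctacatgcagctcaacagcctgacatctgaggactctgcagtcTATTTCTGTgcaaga
Ighv6-3: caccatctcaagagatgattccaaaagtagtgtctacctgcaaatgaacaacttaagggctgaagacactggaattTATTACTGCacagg
Ighv1-9: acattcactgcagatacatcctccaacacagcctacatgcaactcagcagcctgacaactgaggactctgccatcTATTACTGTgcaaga
Ighv1-84: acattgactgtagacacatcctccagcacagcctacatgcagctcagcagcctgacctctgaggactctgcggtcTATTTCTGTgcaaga
Ighv3-6: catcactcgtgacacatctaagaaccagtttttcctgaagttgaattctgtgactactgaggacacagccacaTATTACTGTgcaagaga
The kappa genes lie on chromosome 6, at chr6:69900424-69900977 (Igkv5-39, minus strand), chr6:68256389-68256869 (Igkv14-111, plus strand), chr6:69764523-69765022 (Igkv12-46, minus strand), chr6:68570763-68571235 (Igkv12-98, plus strand) and chr6:68768555-68769103 (Igkv4-91, minus strand).
Igkv5-39: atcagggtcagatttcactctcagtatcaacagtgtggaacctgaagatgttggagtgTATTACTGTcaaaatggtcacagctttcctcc
Igkv14-111: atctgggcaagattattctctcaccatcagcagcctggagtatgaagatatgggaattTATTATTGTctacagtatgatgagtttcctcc
Igkv12-46: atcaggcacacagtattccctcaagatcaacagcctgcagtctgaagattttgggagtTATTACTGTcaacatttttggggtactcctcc
Igkv12-98: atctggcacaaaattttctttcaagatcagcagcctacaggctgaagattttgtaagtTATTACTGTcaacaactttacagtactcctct
Igkv4-91: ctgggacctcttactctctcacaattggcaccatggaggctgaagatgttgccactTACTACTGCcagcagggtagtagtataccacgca
The sequences bear on how far the counts can be told apart. Over whole transcripts Igkv12-46 was 75.1% identical to Igkv12-98, and Ighv1-78 was 82.2% identical to Ighv1-84. Every 51-base stretch (the read length) of Igkv5-39, Igkv14-111 and Igkv12-98 occurred in no other annotated transcript, against 95.1% for Igkv4-91 and 91.7% for Igkv12-46. In contrast only 42.5% of the 51-base stretches of Ighv1-84 were unique, as it shares 30.6% with Ighv1-75, so its count is uncertain. The median over the 174 genes was 77.6%, and 19 genes were under 50%.

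The targeted gene, Aim2, was checked first. At 0 h it was measured at 75.0 and 67.5 CPM (counts scaled to the library size) in WT 3 and WT 4, at 15.7, 20.1 and 19.0 CPM in Aim2-/- 1, 2 and 4, whereas the mouse labelled WT 1 was at only 21.5 CPM. Its 24 h value was 5.57 CPM, within the Aim2-/- range of 5.28 to 7.15, whereas WT 3 and WT 4 had 34.0 and 38.7. At 3 and 6 h its level was likewise close to that of the Aim2-/- mice and far below that of WT 3 and WT 4. The Aim2 level of this mouse therefore went against its label, and the summed levels, the genotype calls and the named genotype calls that change are also given without it. The other results, among them calls by locus, median changes over time, overlaps, persistence counts and family shares, include it. The labelled cell type was in order: the summed level of 8 CD4+ T cell markers lay between 4925 and 5094 CPM in WT and between 5040 and 5301 CPM in Aim2-/- libraries at 0 h, and 0 of 8 were called between the genotypes. B cell markers were present at low summed levels in both genotypes. Rag1, Rag2 and Igll1, which mark cells still recombining their V genes, were at or near 0 in every library (at most 0.195 CPM, for Rag1). They belong to a list of 6 genes that also holds Dntt, Vpreb1 and Vpreb3. The sum of the 6 was not near 0 and was higher in WT at 0 h. It was 3.65 to 5.58 CPM in WT and 2.57 to 3.50 CPM in Aim2-/- libraries.

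The V genes as a whole were far more abundant in Aim2-/- than in WT libraries at every time, and fell strongly in all mice by 24 h. Their summed level at 0 h was 501, 148 and 219 CPM in WT 1, 3 and 4 and 2735, 1874 and 2089 CPM in Aim2-/- 1, 2 and 4, so that the groups were far apart. At 3 h the values were 592, 127 and 169 CPM in WT and 1989, 1205 and 1103 CPM in Aim2-/- mice, and at 6 h 445, 110 and 129 CPM against 1543, 1282 and 952 CPM. At 24 h they were 42.7, 10.1 and 22.5 CPM against 327, 147 and 179 CPM. The mouse labelled WT 1 was the highest of its group at all 4 times, but stayed below every Aim2-/- mouse of the same time. As a ratio of geometric means the Aim2-/- level was 8.70-fold higher at 0 h, 5.92-fold at 3 h, 6.67-fold at 6 h and 9.64-fold at 24 h. Each exact two-sided permutation test gave p = 0.1, the smallest value that 3 against 3 mice allow. Without the mouse labelled WT 1 the differences were 12.2-, 9.43-, 10.4- and 13.6-fold.

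**Figure D1:**
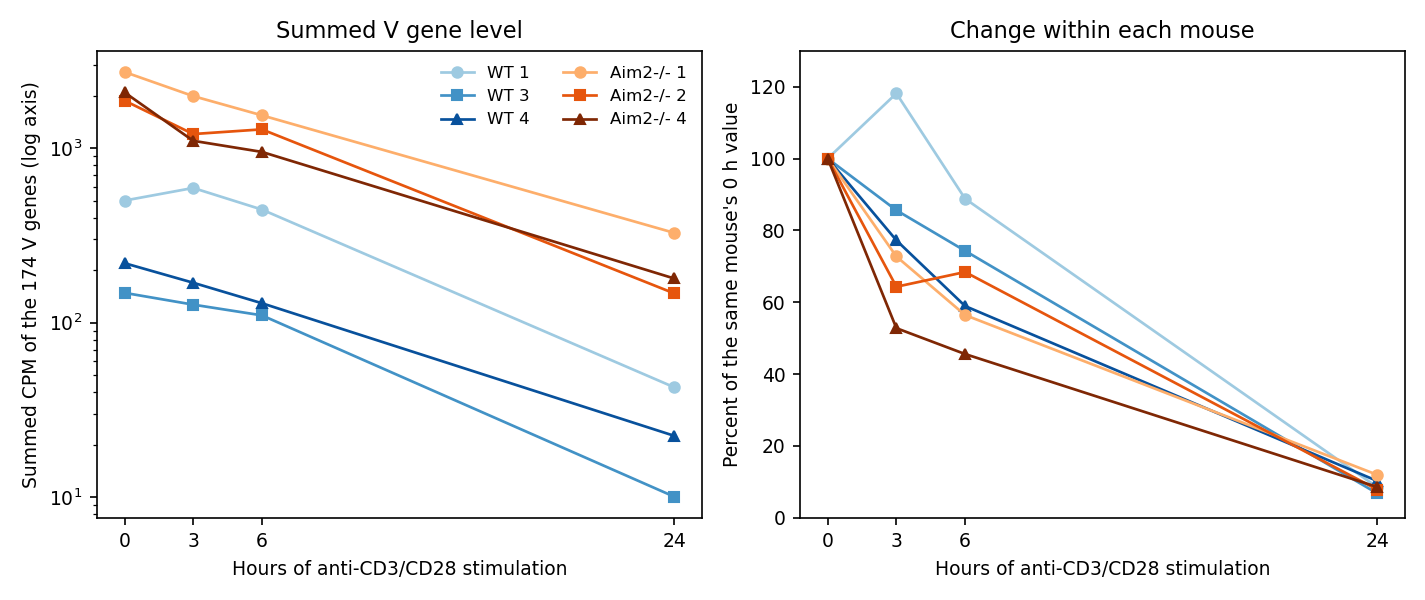
Summed CPM of the 174 V genes against hours of stimulation, 1 line per mouse, on a log axis (left) and as a percent of the same mouse's 0 h value (right). The 3 Aim2-/- mice start at 1874 to 2735 CPM and the 3 WT mice at 148 to 501 CPM, and all 6 fall by 24 h.

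Within mice, the summed level at 24 h was 8.35- to 14.7-fold below that at 0 h, 11.3-fold on average (exact two-sided sign-flip test over 6 mice, p = 0.03125, the smallest possible). The fall differed between the genotypes by 0.15 on the log2 scale, which was within the spread between mice (exact permutation test, p = 0.6). At 3 h the level was 52.8% to 85.6% of the 0 h value in 5 mice and 118% in the mouse labelled WT 1. In bulk RNA, fewer B lineage cells and less V gene mRNA per cell cannot be told apart. The constant region genes fell less than the V genes: the summed V level per unit of summed constant region level (13 genes) was 0.135 to 0.200 in WT and 0.146 to 0.169 in Aim2-/- mice at 0 h, against 0.0243 to 0.0615 and 0.0804 to 0.113 at 24 h. This ratio was lower at 24 h than at 0 h in each of the 6 mice. Igkc, the kappa constant gene, went from 968, 363 and 367 CPM in WT mice at 0 h to 105, 20.2 and 45.4 CPM at 24 h, whereas Ighm, the mu heavy chain constant gene, went only from 738, 556 and 341 CPM to 431, 371 and 325 CPM. Ighm is also the constant gene that T cells transcribe without a V segment. The part of Ighm in the fall of the ratio was not tested.

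Markers of antibody-producing cells went with the V genes only in part. Jchain, the joining chain of secreted IgM and IgA, was at 157, 48.4 and 35.9 CPM in WT 1, 3 and 4 and at 717, 364 and 686 CPM in Aim2-/- 1, 2 and 4 at 0 h. Like the V genes it was lower at 24 h in every mouse, at 20.8, 3.24 and 5.24 CPM in WT and 215, 38.3 and 87.6 CPM in Aim2-/- mice. Of 10 plasma cell genes, 5 were higher and 0 lower in Aim2-/- mice at 0 h, 0 were called at 3 h, 6 were higher and 1 lower at 6 h, and 1 was higher at 24 h. Of all genes, 3.24%, 0.254%, 8.78% and 0.659% were called higher at these times. The summed level below is that of the 10 plasma cell genes. Their summed level was 577 to 796 CPM in WT and 1002 to 1436 CPM in Aim2-/- mice at 0 h, but 1368 to 1521 and 1234 to 1446 CPM at 24 h, where the V genes were at their lowest. At 3 h this sum was already above its 0 h value in every mouse, at 1509 to 1657 CPM in WT and 1621 to 1999 CPM in Aim2-/- mice. Which cells carried this rise under stimulation was not tested. Of 12 B cell genes tested 3 were higher and 0 lower at 0 h. The summed B cell level was 27.5 to 32.9 CPM in WT and 39.2 to 84.9 CPM in Aim2-/- mice, a smaller difference than that of the V genes. The V level per unit of B cell marker level was 4.51 to 18.2 in WT and 32.2 to 50.9 in Aim2-/- mice. Markers of some other cells went the same way at 0 h, with summed basophil genes at 6.59 to 9.46 CPM in WT and 49.6 to 93.6 CPM in Aim2-/- mice, and myeloid genes at 27.2 to 51.6 and 95.8 to 349 CPM. Other lists overlapped between the genotypes. NK cell genes were at 31.5 to 46.3 and 45.3 to 77.5 CPM, erythroid genes at 7.40 to 71.6 and 20.6 to 332 CPM, and CD8 T cell genes at 9.77 to 11.4 and 8.12 to 10.9 CPM. The part of these cells in the V gene difference was not tested.

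Gene by gene, 166 of the 174 V genes had enough counts to be tested (edgeR quasi-likelihood test, Benjamini-Hochberg adjusted over 15325 genes, threshold 0.05). Because a gene could enter through the libraries in which it was high, these counts describe the tested genes and are not support for the difference. At 0 h 57 were higher in Aim2-/- mice and 0 lower, where 3.24% of all genes were called higher. At 3 h 10 were higher (0.254% of all genes), at 6 h 46 (8.78%) and at 24 h 3 (0.659%), and again 0 were lower. The median log2 difference of the tested V genes was 3.15, 2.27, 2.52 and 3.34 at the 4 times, beside -0.01, 0.00, 0.05 and 0.01 over all genes. Fitted differences of genes without counts in a group depend on the prior count, so these medians are descriptions and not bounds. All 3 Aim2-/- mice lay above all 3 WT mice for 106, 63, 77 and 62 of the 166 V genes, beside 14.1%, 7.8%, 18.6% and 11.1% of all genes tested. The low counts at 3 and 24 h came with differences of similar size, and at an unadjusted p under 0.05 there were 113, 82, 94 and 68 V genes. With the mouse labelled WT 1 left out at every time the calls were 81, 49, 67 and 15 of 171, beside 4.27%, 1.97%, 7.83% and 0.92% of all genes.

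Single libraries moved these counts. Here only the library of the named mouse at the compared time was left out, and its other libraries stayed in the fit. At 0 h 15 calls were left without WT 3, 20 without WT 4, 22 without Aim2-/- 1 and 27 without Aim2-/- 4. At 6 h the counts without the same mice were 13, 15, 15 and 26. At 3 h they rose to 23 without the WT 1 library of that time and to 21 without that of Aim2-/- 2, and fell to 1, 1 and 2 without WT 3, WT 4 and Aim2-/- 1. At 24 h 25 were called without the Aim2-/- 2 library of that time, 0 without that of WT 3, and 1 without that of any of WT 1, WT 4 and Aim2-/- 1.

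**Figure D2:**
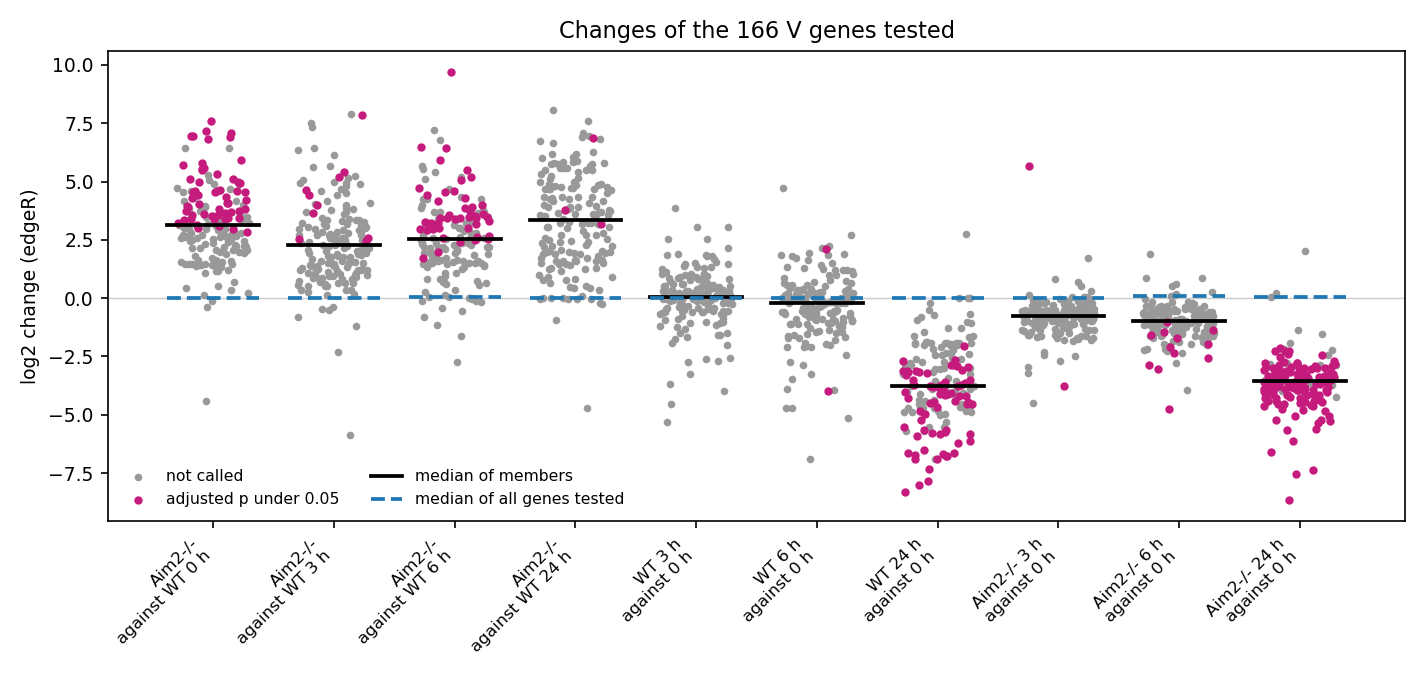
Log2 changes (edgeR) of the 166 tested V genes, 1 point per gene, for the 4 comparisons of genotypes and the 6 of times, with called genes in magenta, the median of the V genes as a black bar and that of all genes as a dashed line. The V gene medians lie at 2.27 to 3.34 for the genotypes and at -3.75 and -3.55 for 24 h against 0 h, while those of all genes lie close to 0.

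By locus, 29 of 82 Ighv, 28 of 81 Igkv and 0 of 3 Iglv genes tested were called at 0 h. At 6 h 17, 28 and 1 were called. All were higher in Aim2-/- mice, where 3.24% and 8.78% of all genes were called higher. The 3 Iglv genes are too few to set against the other loci by calls. The summed level in Aim2-/- mice was 8.20-fold that in WT mice for Ighv, 9.19-fold for Igkv and 6.32-fold for Iglv at 0 h (exact permutation p = 0.1, 0.1 and 0.2). At 6 h the Ighv sums overlapped, with 164 CPM in the mouse labelled WT 1 and 159 CPM in Aim2-/- 4 (4.69-fold, exact permutation p = 0.2). Over the 4 times 67 V genes were called at least once, 36 were called at both 0 and 6 h, and Igkv4-91, Ighv3-6 and Ighv1-55 were called at every time. Igkv4-91 gave the clearest separation. It was measured at 18.9, 61.4 and 26.2 CPM in Aim2-/- 1, 2 and 4 and at 0.05, 0.67 and 0 CPM in WT 1, 3 and 4 at 0 h (log2 difference 7.19, SE 0.69, edgeR adjusted p = 2.2e-05). At 24 h it was still at 6.60, 3.63 and 3.90 CPM against 0.10, 0 and 0 CPM (edgeR adjusted p = 0.0065). The WT libraries of 24 h held 2 counts in all, and the ratio of the levels was 139, with an exact counting interval of 38.1 to 1152. This interval is for counts pooled over the mice and leaves out the spread between mice. Without WT 3 the 24 h call was lost (edgeR adjusted p = 0.063), while the calls at 0, 3 and 6 h held without any 1 library. The calls of Ighv3-6 and Ighv1-55 at 3 h were lost without any of WT 3, WT 4 and Aim2-/- 1, and those at 24 h also without the mouse labelled WT 1 (edgeR adjusted p up to 0.32 for Ighv3-6 and 0.16 for Ighv1-55).

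Ighv3-6, an abundant heavy chain gene, was at 48.6, 41.6 and 70.6 CPM in Aim2-/- mice and at 7.55, 4.29 and 3.35 CPM in WT mice at 0 h (log2 difference 3.40, SE 0.48, edgeR adjusted p = 0.0018). Its share of the Ighv counts overlapped between the genotypes, at 4.11% to 10.02% in WT and 5.67% to 11.9% in Aim2-/- mice. Ighv1-9 was at 106, 55.5 and 47.4 CPM in Aim2-/- mice against 5.30, 2.27 and 0.96 CPM in WT mice (4.60, SE 0.85, edgeR adjusted p = 0.0072), and its share was higher too, at 7.96% to 12.3% against 1.35% to 5.31%. Without WT 3 its adjusted p at 0 h was 0.051. The share of Igkv4-91 also did not overlap between the genotypes, at 1.04% to 4.99% of the Igkv counts in Aim2-/- and 0% to 0.67% in WT mice at 0 h.

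The most abundant member was not called at 0 h. Igkv5-39 was at 458, 87.3 and 111 CPM in Aim2-/- mice and at 21.4, 9.20 and 53.6 CPM in WT mice at 0 h (log2 difference 2.96, SE 1.02, edgeR adjusted p = 0.084). It passed the test only at 6 h, with 288, 69.3 and 73.0 CPM against 14.6, 6.23 and 25.2 CPM (3.22, SE 1.04, edgeR adjusted p = 0.042, and 0.12 without the mouse labelled WT 1). That call was also lost without any of the other WT mice, Aim2-/- 1 or Aim2-/- 4 (edgeR adjusted p up to 0.23). Igkv12-98, in contrast, was called at 0 h on values that came mostly from 1 mouse, at 2.81, 6.06 and 115 CPM in Aim2-/- 1, 2 and 4 and 0, 0.57 and 0.41 CPM in WT mice (6.98, SE 1.82, edgeR adjusted p = 0.034, and 0.097 without the mouse labelled WT 1). Without Aim2-/- 4 the edgeR adjusted p was 0.20, and without WT 3, WT 4 or Aim2-/- 1 the call was lost as well. At 6 h the 3 WT libraries held 1 count of Igkv12-98 in all, and the ratio of the Aim2-/- level to it was 1109, with an exact counting interval of 199 to 43844. This interval is for pooled counts and leaves out the spread between mice, although Aim2-/- 1, 2 and 4 held 83, 110 and 943 counts.

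Lambda light chains, the minor light chain class of mice, overlapped between the genotypes at 0 h. Iglv1, by far the most used lambda gene, was at 39.0, 4.08 and 3.85 CPM in WT 1, 3 and 4 and at 44.9, 31.3 and 119 CPM in Aim2-/- 1, 2 and 4 at 0 h (log2 difference 2.05, SE 1.12, edgeR adjusted p = 0.27). The groups met because of the mouse labelled WT 1, and without it the adjusted p was 0.0079. The share of lambda among light chain V counts was 13.3% in that mouse (95% Wilson interval 12.5 to 14.2), 5.15% and 2.91% in WT 3 and WT 4, and 2.85%, 2.85% and 8.62% in Aim2-/- 1, 2 and 4. Over the 4 times it was 13.3% to 17.6% in WT 1, 4.97% to 7.36% in WT 3, 2.85% to 4.60% in Aim2-/- 1, 2.36% to 2.85% in Aim2-/- 2 and 7.28% to 9.83% in Aim2-/- 4. In WT 4 it was 2.91% (2.36 to 3.59) at 0 h and 2.87% at 3 h, and then 5.36% (4.45 to 6.45) at 6 h and 5.64% at 24 h. The lambda constant gene Iglc1 was at 117, 10.5 and 7.81 CPM in WT mice and at 114, 57.0 and 268 CPM in Aim2-/- mice at 0 h, high in the same mice as Iglv1.

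Calls over time were most numerous at 24 h in both genotypes, as they also were over all genes tested (10946 called in WT and 10778 in Aim2-/- mice). In WT mice 0 of 166 were called at 3 h (7 at an unadjusted p under 0.05, and 3 by DESeq2), 2 at 6 h and 68, all lower, at 24 h, where 16.4%, 24.8% and 34.8% of all genes were called lower. In Aim2-/- mice 2 were called at 3 h, 12, all lower, at 6 h and 141, all lower, at 24 h, where 14.6%, 22.7% and 33.5% of all genes were called lower. The shares of all genes called higher at 3 and 6 h were 16.2% and 26.4% in WT, and 16.1% in Aim2-/- mice at 3 h. The V gene calls at 24 h were 41.0% of the tested V genes in WT and 84.9% in Aim2-/- mice. In this fit the WT share was thus not far above the 34.8% of all genes. With the mouse as a block, which the pairing of libraries allows, the WT calls were 12 (5 higher and 7 lower), 25 (4 and 21) and 114 (all lower), and the Aim2-/- calls were 54 (1 higher and 53 lower), 77 and 159 (all lower). The corresponding shares of all genes called lower were then 21.5%, 29.1% and 37.7% for WT, as against 20.3%, 27.1% and 36.8% for Aim2-/- mice, and those called higher were 21.2% and 30.1% for WT at 3 and 6 h and 20.8% for Aim2-/- mice at 3 h. The WT count at 24 h was 14 by limma-voom. Without the WT 1 library of 0 h it was 41, and the 6 h count was 14 without the WT 1 library of that time.

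The median log2 change of the tested V genes was 0.06, -0.22 and -3.75 at 3, 6 and 24 h in WT and -0.76, -0.996 and -3.55 in Aim2-/- mice. Ighv3-6 fell by 4.04 on the log2 scale between 0 and 24 h in Aim2-/- mice (SE 0.50, edgeR adjusted p = 3.0e-07) and by 3.80 in WT mice (SE 0.64, edgeR adjusted p = 2.0e-05). Igkv5-39 fell by 3.01 in Aim2-/- mice (SE 1.02, edgeR adjusted p = 0.013, and up to 0.0998 without 1 of Aim2-/- 1, 2 and 4) and by 4.12 in WT mice (SE 1.29, edgeR adjusted p = 0.0074). Few V genes went up. Igkv4-91 rose in WT mice at 6 h, from 0.05, 0.67 and 0 CPM to 1.11, 0.73 and 1.31 CPM (2.12, SE 0.80, edgeR adjusted p = 0.032, and 0.23 without the mouse labelled WT 1), and Ighv3-4, named after its values were seen, was called higher at 3 h in Aim2-/- mice on 3.10 CPM in 1 library against 0 and 0.28 CPM in the others. Igkv4-50 had fallen in Aim2-/- mice at 3 h, from 5.57, 3.15 and 3.15 CPM to 0.47, 0.23 and 0.14 CPM (-3.77, SE 0.95, edgeR adjusted p = 0.0046), but was back at 6.99, 1.62 and 1.59 CPM at 6 h.

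Usage was concentrated in few genes, and the number of genes in use varied widely between mice. Pooled over all libraries, and so mostly over Aim2-/- counts, the top 5 genes held 29.5% of the Ighv and 37.8% of the Igkv counts, and the top 10 held 47.2% and 51.3%. Compared per kilobase of exon, the highest mean levels over the 24 libraries, which the Aim2-/- mice dominate, were those of Igkv5-39 with 224 CPM per kb, Igkv12-46 with 108, Igkv19-93 with 79.8 and Iglv1 with 64.9, and the highest heavy chain genes were Ighv1-9 with 49.96 and Ighv3-6 with 43.5. As V genes are all of about the same length (338 to 480 bases of exon), the gene with the most counts was also the highest per length in 24 of 24 libraries for Ighv and 23 of 24 for Igkv.

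WT 4 had the most concentrated usage. In this mouse Igkv5-39 held 37.3% (95% Wilson interval 35.5 to 39.1) and Igkv14-111 27.2% (25.6 to 28.8) of the Igkv counts at 0 h, so that 2 genes made up most of its kappa V mRNA. Among its heavy chains Ighv6-3 held 23.8% (21.6 to 26.1) and Ighv1-78 22.6% (20.5 to 24.9). Intervals cover counting error only. In Aim2-/- 1 Igkv5-39 held 25.1% of the Igkv counts and Ighv1-9 12.3% of the Ighv counts at 0 h, and in Aim2-/- 2 Igkv12-46 held 18.6% and Ighv1-84 11.6%. The mouse labelled WT 1, WT 3 and Aim2-/- 4 had a flatter usage, with leading kappa genes at 8.10% (Igkv10-96), 9.20% (Igkv5-39) and 8.44% (Igkv12-98) and leading heavy chain genes at 12.04% (Ighv1-39), 10.02% (Ighv3-6) and 11.9% (Ighv3-6).

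**Figure D3:**
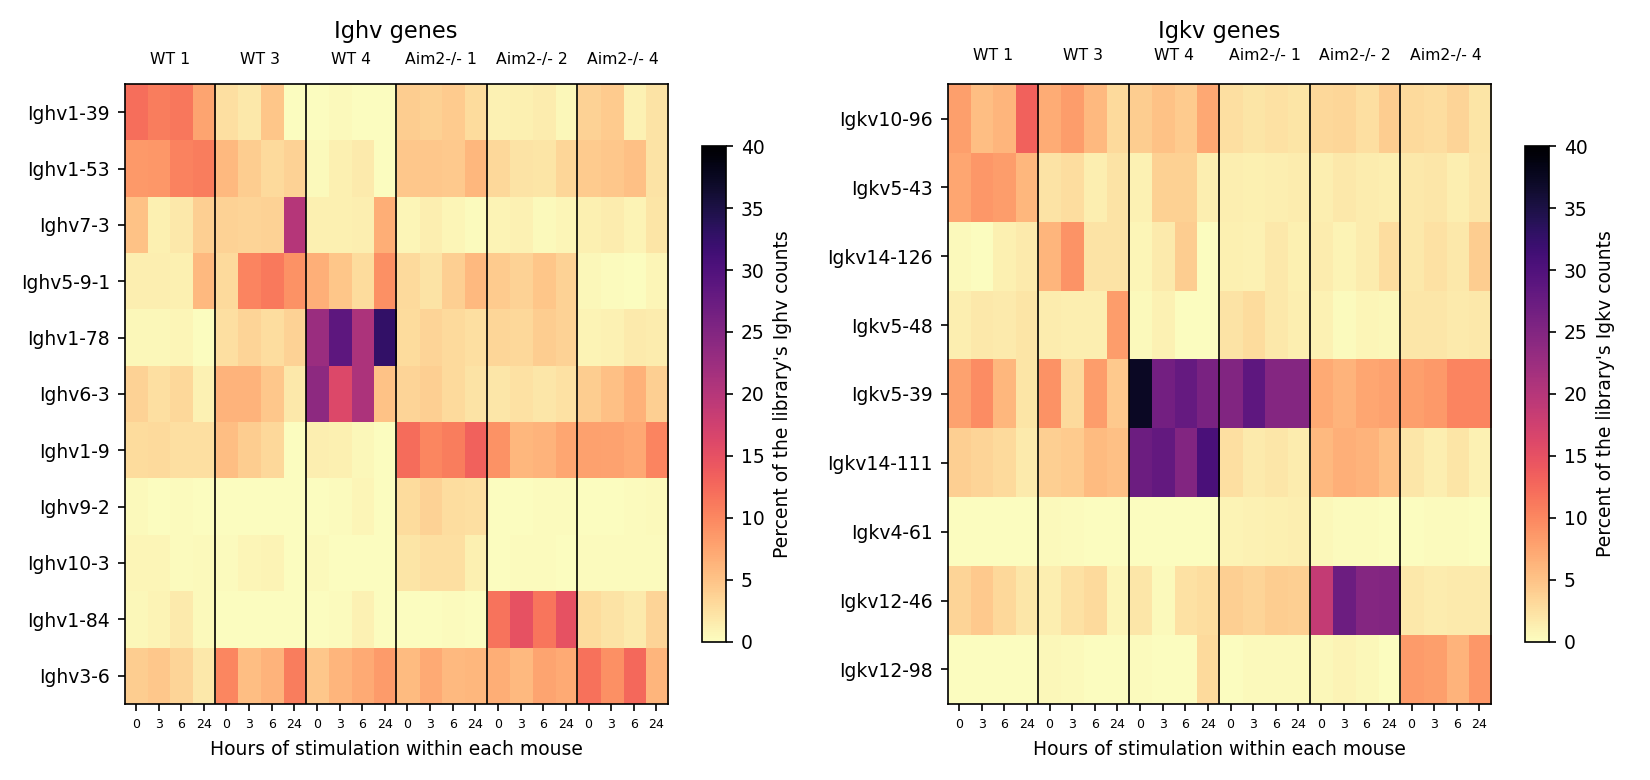
Percent of each library's Ighv (left) or Igkv (right) counts held by the leading genes, 1 row per gene and 1 column per library, ordered by mouse and then by time. Dark cells recur along the 4 columns of a mouse, as for Igkv5-39 and Igkv14-111 in WT 4 (37.3% and 27.2% at 0 h) and for Igkv12-46 in Aim2-/- 2 (18.6% at 0 h and 25.0% at 24 h).

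The effective number of genes, the count of equally used genes that would give the same concentration, summarised this. For Igkv at 0 h it was 23.8, 28.8 and 4.60 in WT 1, 3 and 4. In Aim2-/- 1, 2 and 4 it was 11.5, 16.1 and 27.5. The group values at 0 h were 19.0 ± 12.8 (SD, n = 3) in WT and 18.4 ± 8.26 in Aim2-/- mice for Igkv, and 19.4 ± 10.1 and 24.8 ± 3.24 for Ighv. The exact permutation tests gave p = 0.9 for Igkv and p = 0.7 for Ighv at 0 h and p = 0.6 and p = 0.2 at 24 h, where 3 against 3 mice cannot go below 0.1. At 24 h the Ighv values were 13.9 ± 6.40 in WT and 23.4 ± 5.22 in Aim2-/- mice. Unthinned, the groups overlapped at 24 h, with 19.4 in WT 1 and 18.96 in Aim2-/- 2. With each library thinned to 55 Ighv counts in a single random draw, the values at 24 h were 19.5, 15.5 and 7.04 in WT 1, 3 and 4 and 21.8, 19.8 and 29.7 in Aim2-/- 1, 2 and 4. The groups lay apart in that draw only by 19.5 against 19.8, so it does not show a separation of the genotypes. The Ighv difference at 0 h was 5.37 genes and turned to -0.27 without WT 4.

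**Figure D4:**
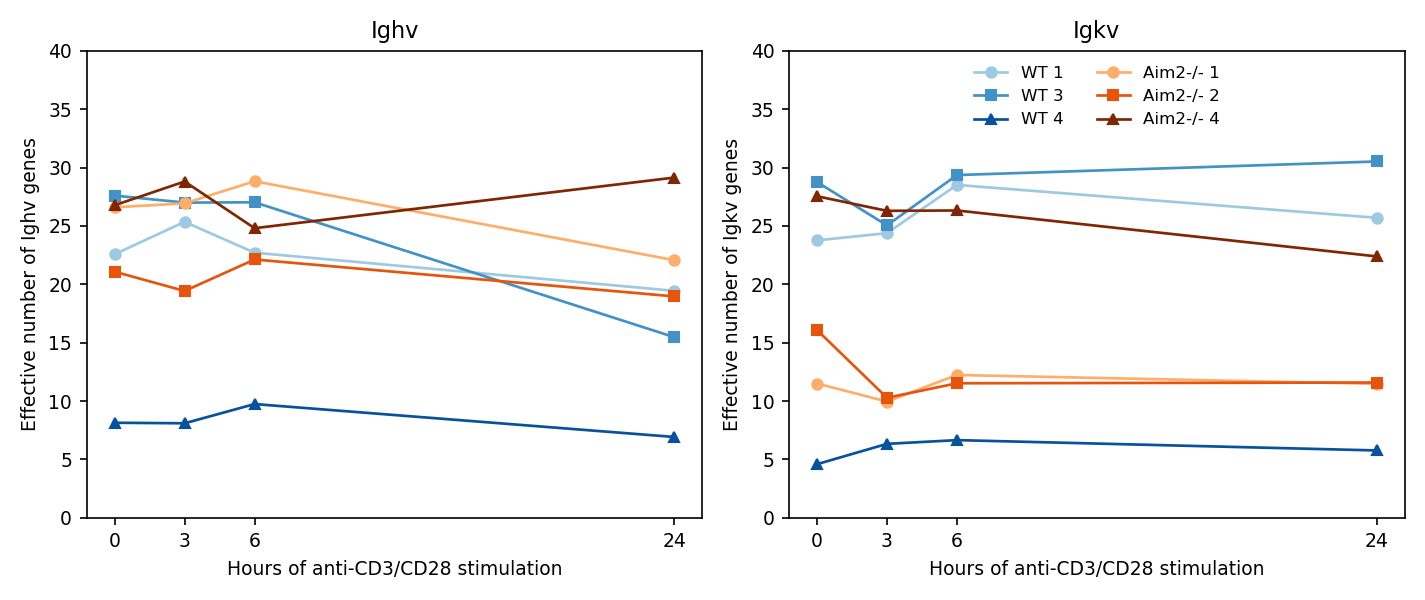
Effective number of Ighv (left) and Igkv (right) genes against hours of stimulation, 1 line per mouse. WT 4 is the lowest mouse at 0 h in both loci, at 8.14 and 4.60. The Igkv values of the other mice at 0 h range up to 28.8 in WT 3.

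Several leading genes kept shares of the same order within a mouse while the summed level fell 8.35- to 14.7-fold. In Aim2-/- 1 Igkv5-39 held 25.1%, 28.5%, 24.7% and 24.8% of the Igkv counts at 0, 3, 6 and 24 h, whereas it held 6.40% to 7.70% in Aim2-/- 2. Igkv12-46 held 18.6%, 27.2%, 24.8% and 25.0% in Aim2-/- 2 but at most 4.51% in any other mouse. Igkv14-111 held 27.2%, 28.0%, 24.9% and 30.6% in WT 4 and at most 6.61% elsewhere. Igkv12-98 stayed at 8.44%, 7.997%, 6.34% and 8.62% in Aim2-/- 4, and Ighv1-84 at 11.6%, 14.9%, 11.5% and 14.9% in Aim2-/- 2. Igkv12-46, Igkv14-111, Igkv12-98 and Ighv1-84 each held their largest share in 1 mouse, whereas Igkv5-39 was used as heavily in WT 4 (25.9% to 37.3%) as in Aim2-/- 1. The leading gene also changed within mice: Ighv6-3 went from 23.8% to 5.04% in WT 4 at 24 h, on 119 Ighv counts, and the gene that led Ighv in WT 3 at 24 h, Ighv7-3, did so on 11 of 55 counts. The lead changed at high counts too, between genes of close shares. In Aim2-/- 4 it went from Igkv12-98 at 0 h to Igkv5-39 at 3 h (8.55% of 16056 Igkv counts), 6 h and 24 h. In the mouse labelled WT 1 it went from Igkv10-96 to Igkv5-39 at 3 h (9.61% of 7035 counts), Igkv5-43 at 6 h and Igkv10-96 again at 24 h.

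Across all genes of a locus, the overlap of the shares (the summed smaller share of each gene) between libraries of the same mouse had a median of 83.1% for Igkv and 74.9% for Ighv over 36 pairs. It was 53.6% and 55.6% between different mice of a genotype (72 pairs) and 51.7% and 46.7% between genotypes (108 pairs). All these pairs were of libraries from different times. Among the libraries of other times, the one with the most similar usage was of the same mouse for 24 of 24 libraries by Igkv and 23 of 24 by Ighv. Libraries of the same time were not searched. Between 0 and 24 h the Igkv overlap was 87.8%, 83.8% and 83.0% in Aim2-/- 1, 2 and 4, and 64.0%, 58.8% and 72.4% in WT 1, 3 and 4. The WT mice had the lower overlap and also the fewer counts (196 to 842 V gene counts at 24 h, against 2925 to 6693 in Aim2-/- mice). The part of depth in this was not tested.

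**Figure D5:**
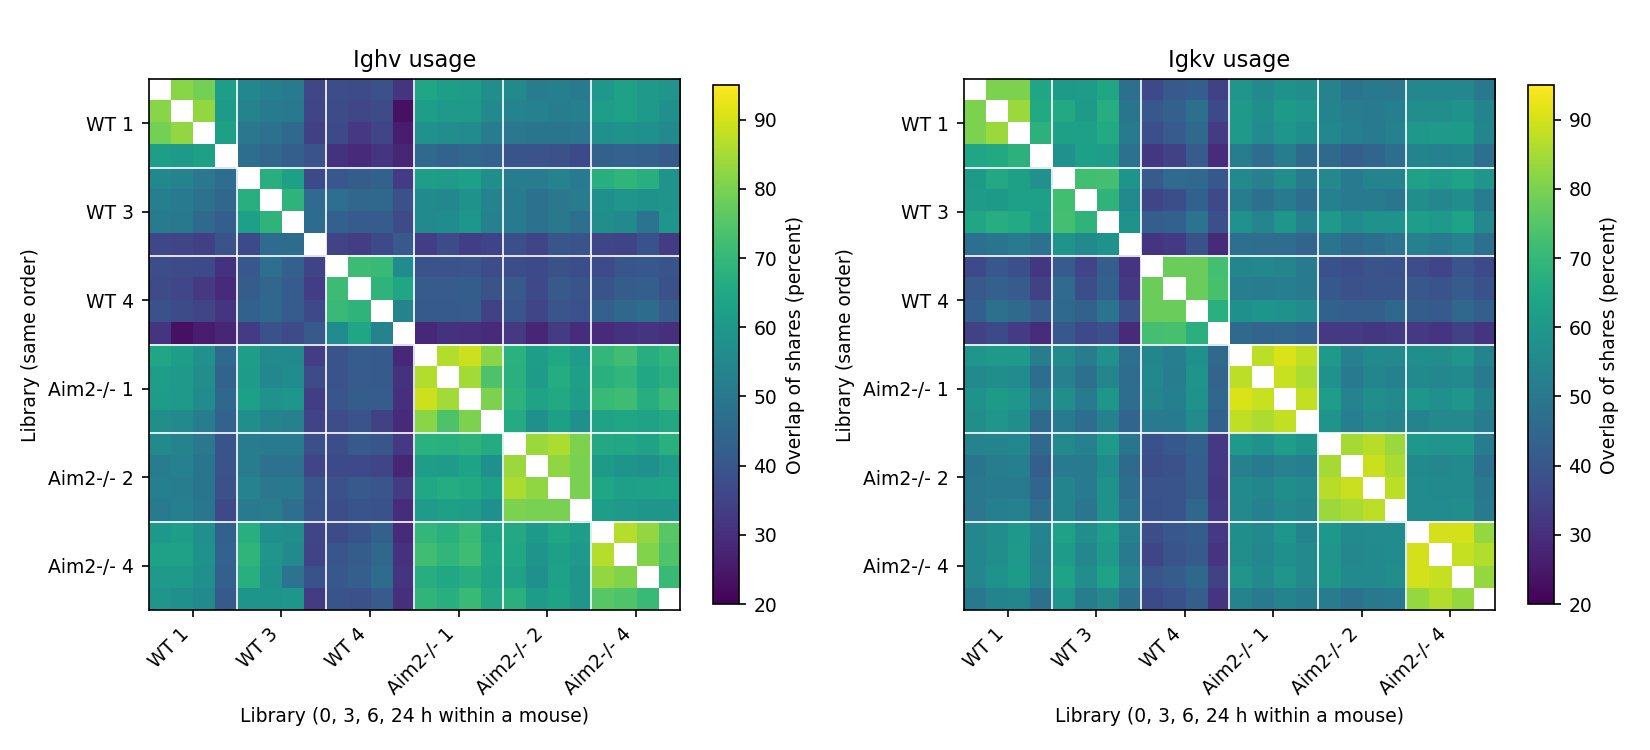
Overlap of V gene shares between each pair of the 24 libraries, for Ighv (left) and Igkv (right), with libraries ordered by mouse and then by time and the diagonal left blank. The brightest blocks lie along the diagonal, within mice, with medians of 74.9% and 83.1%, while the median between genotypes is 46.7% and 51.7%. These medians are over pairs from different times only.

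For 59 of 166 tested V genes (35.5%) the same mouse had the highest CPM at all 4 times, against 11.2% of all genes tested. That mouse was Aim2-/- 1 for 35 genes, Aim2-/- 4 for 14 and Aim2-/- 2 for 8, and a WT mouse for 2. As the Aim2-/- mice had the most V gene counts, the same was asked of the shares: 41 genes (24.7%) then kept 1 highest mouse, 10 of them WT 1, 8 Aim2-/- 1, 8 Aim2-/- 4, 7 Aim2-/- 2 and 4 each WT 3 and WT 4. Several genes had most of their CPM in 1 mouse, and those named here were chosen for this. Such a sum favours the Aim2-/- mice, which had the most V gene counts. Aim2-/- 1 held 93.8% of the CPM of Ighv9-2 summed over the 24 libraries, 82.8% of Ighv10-3 and 72.5% of Igkv4-61. Aim2-/- 4 held 88.2% of Igkv12-98, and Aim2-/- 2 held 82.7% of Ighv1-84 and 72.4% of Igkv12-46. Over all 174 genes the mouse with the largest part held between 24.7% and 96.9% of the CPM, with a median of 43.4%.

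By family, Ighv1, the largest heavy chain family with 45 of the 86 genes, made up 48.8 ± 9.6% (SD, n = 3) of the Ighv counts in WT and 59.1 ± 7.3% in Aim2-/- mice at 0 h. Among the kappa families Igkv5 made up 22.7 ± 13.8% and 16.7 ± 10.4%, Igkv12 5.9 ± 2.3% and 16.4 ± 8.7%, and Igkv14 15.1 ± 11.7% and 5.2 ± 1.9%. By position, with the genes of a locus ordered and split evenly in 4 from the joining segments outwards, the mean Ighv shares at 0 h were 20.1%, 34.3%, 20.96% and 24.6% in WT mice, against 16.3%, 35.3%, 20.5% and 27.9% in Aim2-/- mice. For Igkv they were 39.3%, 16.3%, 15.9% and 28.5% against 36.3%, 22.8%, 21.05% and 19.9%. Genes at both ends of each locus were used. Family shares and positions were not tested.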

How the data were processed

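Poly(A) RNA of splenic CD4+ T cells from 6 mice at 4 times was sequenced (TruSeq stranded mRNA kit, per the labels). Single-end reads of 51 bases are described in the methods of the associated paper, whose RNA-seq figures cover another experiment. The deposited values are raw counts per gene, which the authors made by aligning to GRCm38 with STAR; the submitters' processing notes also name DESeq2 and edgeR. The strand setting and the treatment of reads that map to several genes are not given in the sources used here. Symbols were matched to 54409 of 54446 identifiers through GENCODE M21.

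The V genes were chosen by their summed counts, and members and marker lists were chosen with earlier results of these data known. Genes were filtered with filterByExpr (minimum count 10), scaled by TMM and fitted over all 8 groups with the edgeR 4.0.16 quasi-likelihood test (R 4.3.3), with Benjamini-Hochberg adjustment over 15325 genes. CPM used TMM library sizes. Summed levels, effective numbers (inverse Simpson index of the shares) and overlaps were computed in Python 3.11.15, and compared by exact two-sided permutation or sign-flip tests (SciPy 1.17.1). Alternatives used DESeq2 1.42.0, limma 3.58.1, RLE factors, no filter, only the libraries compared, a block and single libraries left out. The code was tested on simulated data.

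Libraries of 1 mouse are paired by the labels: deviations from group means correlated at 0.139 to 0.567 over 36 pairs of the same mouse and at -0.432 to 0.0742 over 72 pairs of different mice of a genotype. Whether mice were housed or processed together is not stated.

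Named genes were the 5 of each locus with the highest mean CPM, every gene that led a library, the largest called changes without overlap (3 each way per genotype comparison, 2 per time comparison), the 3 of each locus most concentrated in 1 mouse (mean CPM of at least 1), the 3 on either side of the sum of 50, and Aim2 and the markers.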

Additional observations from a re-analysis of the deposited data

Results flagged for a closer look

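The change of the effective number of Igkv genes between 0 and 24 h went opposite ways in the genotypes. It was higher at 24 h in each WT mouse, by 0.11, 0.09 and 0.33 on the log2 scale in WT 1, 3 and 4, and was lower in each Aim2-/- mouse, at -0.003, -0.47 and -0.30 in Aim2-/- 1, 2 and 4, a difference between the mean changes of -0.43. The change in Aim2-/- 1 was close to 0. The libraries differed in depth, with 134 to 467 Igkv counts in WT mice at 24 h. With each library thinned to 134 counts in a single random draw the pattern did not recur, as WT 3 had 30.8 genes at 0 h and 30.5 at 24 h, while Aim2-/- 1 had 10.1 and then 13.2. A single draw of so few counts is noisy and cannot tell what depth contributed. The difference was not tested.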

How the results depend on the processing

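With the counts of called V genes for the genotypes at 0, 3, 6 and 24 h being 57, 10, 46 and 3, no filter on low counts gave 125, 86, 106 and 67 of 174. Over all genes the main fit called 802, 45, 2421 and 102 of 15325. Without the filter 1499, 775, 2942 and 962 of 31367 were called. DESeq2 gave 32 at 3 h and 46 at 24 h, limma-voom 0 at 24 h, and fits of only the libraries compared 1 at 3 h and 0 at 24 h. Over all genes DESeq2 called 312 and 783 of 31358, and limma-voom 5 of 15325. Fits of only the libraries compared called 2 of 13629 and 0 of 13250. The mouse number as a replicate block, which pairs nothing across genotypes (8 pairs, r = -0.165 to 0.268), gave 117, 76, 91 and 55. With this block 3613, 2324, 5516 and 3235 of all 15325 genes were called, so calls rose over all genes too. Without the mouse labelled WT 1 there were 49 at 3 h and 15 at 24 h, beside 425 and 165 of all 15656 genes. For WT stimulation at 3, 6 and 24 h (0, 2 and 68), no filter gave 11, 15 and 123, DESeq2 3 at 3 h, limma-voom 0 at 6 h and 14 at 24 h, only the libraries compared 0 at 6 h and 41 at 24 h, the mouse as a replicate block 12, 25 and 114, and leaving out the mouse labelled WT 1 1 at 3 h and 6 at 6 h. For Aim2-/- stimulation at 3 and 6 h (2 and 12), no filter gave 14 and 43, limma-voom 10 and 33, only the libraries compared 9 and 42, and the mouse block 54 and 77. Over all genes no filter called 3997 and 7289 of 31367, and limma-voom 4739 and 7997 of 15325. Only the libraries compared gave 3367 of 13735 and 6863 of 13814, and the mouse block 6307 and 9183 of 15325. Leaving out single libraries gave 15 to 63, 1 to 23, 13 to 48 and 0 to 25 for the genotypes, 0 to 3, 0 to 14 and 41 to 79 for WT, and 1 to 3, 3 to 14 and 105 to 141 for Aim2-/- mice. It gave log2 differences of summed V level of 2.73 to 3.61, 2.13 to 3.24, 2.36 to 3.37 and 2.73 to 3.77, a 24 h change of -3.59 to -3.42 (exact sign-flip p = 0.0625, the smallest 5 mice allow), and a genotype difference of that change of -0.03 to 0.29, negative without WT 3 (-0.005) or Aim2-/- 1 (-0.033). Effective number differences were -0.27 to 9.45 and 5.93 to 12.2 for Ighv at 0 and 24 h, and -7.88 to 4.20 and -13.0 to -0.58 for Igkv. They turned for Ighv at 0 h without WT 4 (-0.27), and for Igkv at 0 h without WT 1 (1.70), WT 3 (4.20), Aim2-/- 1 (2.77) or Aim2-/- 2 (0.48). The cause was not tested. RLE factors kept each count within 1.5 times. WT libraries of 24 h, with 196 to 842 V counts, limit every share read from them.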
